A study of Mus musculus with 7 samples.

Results

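The SOCS family genes Cish, Socs1, Socs2, Socs3, Socs5, Socs6 and Socs7 were followed in CD4+ T cells of wild-type mice, of mice without working Foxp3, and of such mice that also lack interleukin-2 (IL-2). They were taken by name, as the probe sets whose array annotation names only 1 of them, and the rule uses no values. The family itself was chosen with earlier results of these data known. This gave 20 of 45037 probe sets and 7 of 18193 genes, with 6 probe sets for Socs2, 4 for Socs7, 3 each for Socs3 and Socs6, 2 for Socs5 and 1 each for Cish and Socs1. The brightest probe set of a gene, by its mean over all arrays, is the main value, and the others are given beside it.

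SOCS proteins (suppressors of cytokine signalling) and their founding relative CIS, the product of Cish, form a feedback loop on cytokine receptors. A cytokine activates JAK kinases at its receptor, these activate STAT transcription factors, and STATs switch on SOCS genes. The SH2 domain of the SOCS protein then binds the receptor or the kinase, and its SOCS box recruits a ubiquitin ligase. In T cells Cish and Socs2 are known as targets of STAT5, the factor that IL-2 activates, whereas Socs1 is known for restraining interferon-gamma and common gamma chain receptors and Socs3 for restraining receptors that signal through gp130.

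The 7 Affymetrix arrays hold RNA of sorted CD4+ T cells from peripheral lymph nodes, taken from male mice at 3 weeks of age. Cells bearing B220, CD8, CD11b, CD11c or NK1.1 were depleted first, and the rest were sorted for CD3 and CD4. The B6 group (C57BL/6, wild type) is 1 array of RNA pooled from 2 mice. The Sf group (Scurfy, B6.Cg-Foxp3sf/J, a germ line mutation of Foxp3, which regulatory T cells depend on) has 3 arrays, and the Sf.Il2-/- group, which carries the Foxp3 mutation as well as the null allele of B6.129P2-Il2tm1Hor/J, also has 3. The titles call the arrays of a group biological replicates. Values are log2(intensity + 1), where intensity is the authors' linear signal of a probe set, and differences are on that scale. Intensities of different probe sets are not comparable as amounts of RNA, so levels are set only against the same probe set in other arrays.

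Median intensity was 29.3 to 32.4 per array, and precision is limited by how few arrays there are. The upper quartile of intensity was less even. B6 had 140.9, the Sf arrays by number had 116.4, 110.2 and 144.6, and the Sf.Il2-/- arrays had 115.5, 116.4 and 130.4. It was thus highest for B6, Sf 3 and Sf.Il2-/- 3, the arrays that form set 2 below. The main values were not adjusted for this, and quantile normalization was run as an alternative. Il2 read 5.22 in B6, 5.39, 5.09 and 7.35 in the Sf arrays, and 7.17, 8.20 and 7.74 in those labelled Sf.Il2-/-. Its probe set therefore does not show the deletion, and the sources used here do not say whether the probes match the disrupted stretch of the gene. The neutrophil gene S100a8 stood apart in Sf 1 (6.37) and Sf.Il2-/- 2 (7.63), against at most 4.10 elsewhere. By dim probe sets the arrays fell into 2 sets of uncertain division (lowest correlation within sets 0.553, highest between sets 0.554), with B6, Sf 3 and Sf.Il2-/- 3 in set 2 and the other 4 arrays in set 1, so values within sets are given where a result needs them. The neutrophil markers summed to an intensity of 196 in B6, 162 to 345 in Sf and 170 to 570 in Sf.Il2-/-. Of 7 CD4 T cell markers 6 were on the array. Their summed intensity was 16087 in B6, 8332 to 11753 in Sf and 13164 to 15009 in Sf.Il2-/-, so the mutant groups did not overlap in it.

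The promoter sequences of Cish, Socs1 and Socs3 are shown because STAT factors bind DNA of the form TTCNNNGAA. The matches were not set against the test results. RefSeq windows of 300 bases (GRCm38.p6, 250 bases before the start and 50 after) were used for 3 of the 7 members, and Socs2, Socs5, Socs6 and Socs7 are named only. The search for member windows left out a chromosome that the share over all windows below includes. The stretches below run 5′ to 3′ on the gene's strand, end at the start of the transcript or at the last match past it, and have matches to TTCNNNGAA in capitals. The motif reads the same on both strands.
Cish, chr9:107296559-107296678, plus strand: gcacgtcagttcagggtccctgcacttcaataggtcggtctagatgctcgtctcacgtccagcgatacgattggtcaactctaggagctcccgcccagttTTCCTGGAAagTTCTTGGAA
Socs3, chr11:117969367-117969545, minus strand: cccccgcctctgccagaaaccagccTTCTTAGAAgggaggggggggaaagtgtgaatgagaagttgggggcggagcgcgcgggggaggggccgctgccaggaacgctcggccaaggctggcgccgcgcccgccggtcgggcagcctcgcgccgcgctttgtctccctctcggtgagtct
Socs1, chr16:10785537-10785636, minus strand: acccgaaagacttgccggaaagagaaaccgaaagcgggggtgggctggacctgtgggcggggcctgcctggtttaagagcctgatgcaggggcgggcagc

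The Cish window held 2 matches, TTCCTGGAA at bases 1 to 9 and TTCTTGGAA at bases 12 to 20 counted from the transcript start. The Socs3 window held 1, TTCTTAGAA, at 154 to 146 bases before the start, and the Socs1 window none. Of all 32851 RefSeq windows of this length 8.3% held at least 1 match and 0.457% at least 2. The form with 1 more base in the gap, which STAT6 prefers, was in none of the 3 windows and in 6.95% of all windows. A match is a run of letters and was not tested as a binding site here.

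Between Sf.Il2-/- and Sf, which share the Foxp3 mutation and by their labels differ in the Il2 allele, Cish and Socs2 fell and the other 5 members did not pass the test. Socs2 was 8.87-fold and Cish 3.54-fold lower in Sf.Il2-/-. Socs1 and Socs3, the members best known for restraining interferon and interleukin-6 signals, differed by less than the spread between arrays. All 7 members were bright enough to be tested (highest group mean at least 5). In limma's fit over 11460 genes, adjusted by Benjamini-Hochberg at 0.05, 0.279% of genes passed in this comparison and 0.236% passed as lower, against 2 of 7 members, both lower. The family was chosen with earlier results of these data known, so this count is not an independent test. The median difference of the members was 0.05, beside 0.08 for all genes tested.

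**Figure D1:**
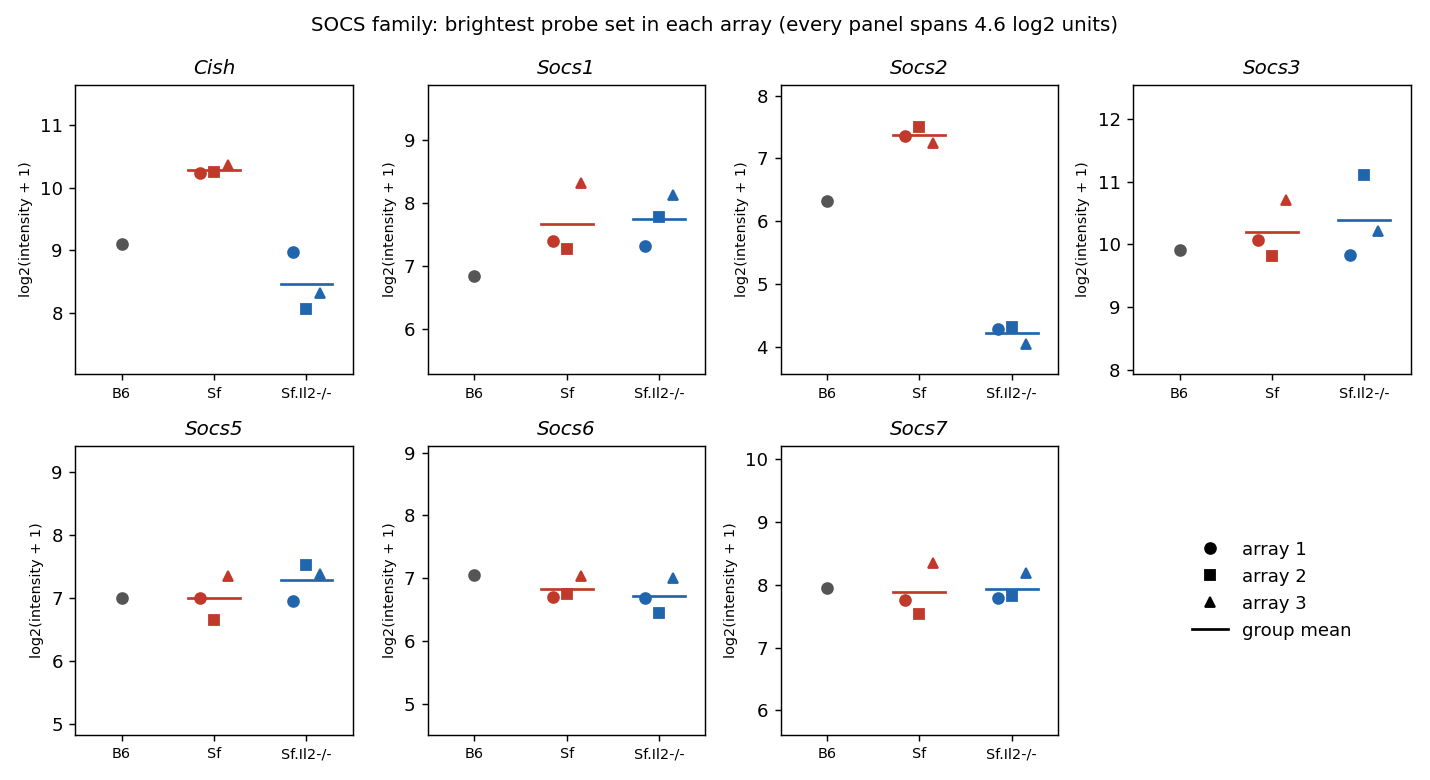
Each panel plots log2(intensity + 1) of a member's brightest probe set in the 7 arrays by group, with a line at the mean of each group of 3; every panel spans the same number of log2 units around its own mean. Cish and Socs2 are highest in the 3 Sf arrays and lowest in the 3 Sf.Il2-/- arrays, with B6 between them, and the mutant groups overlap in the other 5 panels.

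Socs2 encodes an inhibitor best known for limiting growth hormone signalling, and in T cells it is induced through STAT5 and STAT6. Its brightest probe set (1418507_s_at) read 6.32 in B6, 7.36, 7.50 and 7.25 in the Sf arrays, and 4.29, 4.32 and 4.05 in the Sf.Il2-/- arrays. The Sf arrays were the highest and the Sf.Il2-/- arrays the lowest, and the spread inside either group was small (SD 0.13 and 0.15, n = 3 each). The mutant groups did not overlap, with Sf.Il2-/- lower, as in 3.72% of all genes. In this comparison Socs2 fell by 3.15 ± 0.20 (log2, SE, n = 3 and 3; limma adjusted p = 0.000517). Socs2 had the lowest p of all genes tested. As intensity it went from 151 to 180.0 in Sf to 15.5 to 19.0 in Sf.Il2-/-, where the log2 mean of 4.22 is near the floor of these arrays, so the size of the fall is not exact. The difference was -3.12 within array set 1 and -3.20 within set 2.

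The other 5 probe sets of Socs2 gave differences from larger than this to near 0. The second brightest (1449109_at) read 6.29 in B6, 7.35, 7.51 and 7.05 in the Sf arrays, and 3.42, 3.35 and 2.80 in the Sf.Il2-/- arrays. Fitted over the 20617 probe sets that name 1 gene, of which 0.112% passed, it fell by 4.11 ± 0.26 (adjusted p = 0.000526), beside 3.15 (adjusted p = 0.000526) for the brightest in that fit. The remaining 4 were dim, with means of 3.05 to 5.45 in Sf. Their differences, -0.81, -1.29, -0.20 and -0.21, all lay below 0, but 2 were too dim to test and the other 2 did not pass (adjusted p = 0.701 and 0.232). The 2 that were tested reached a mean of 5 only through Sf, which pushes their differences below 0. Averaging all 6 probe sets gave a Socs2 difference of -1.63 that did not pass (adjusted p = 0.0684).

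**Figure D2:**
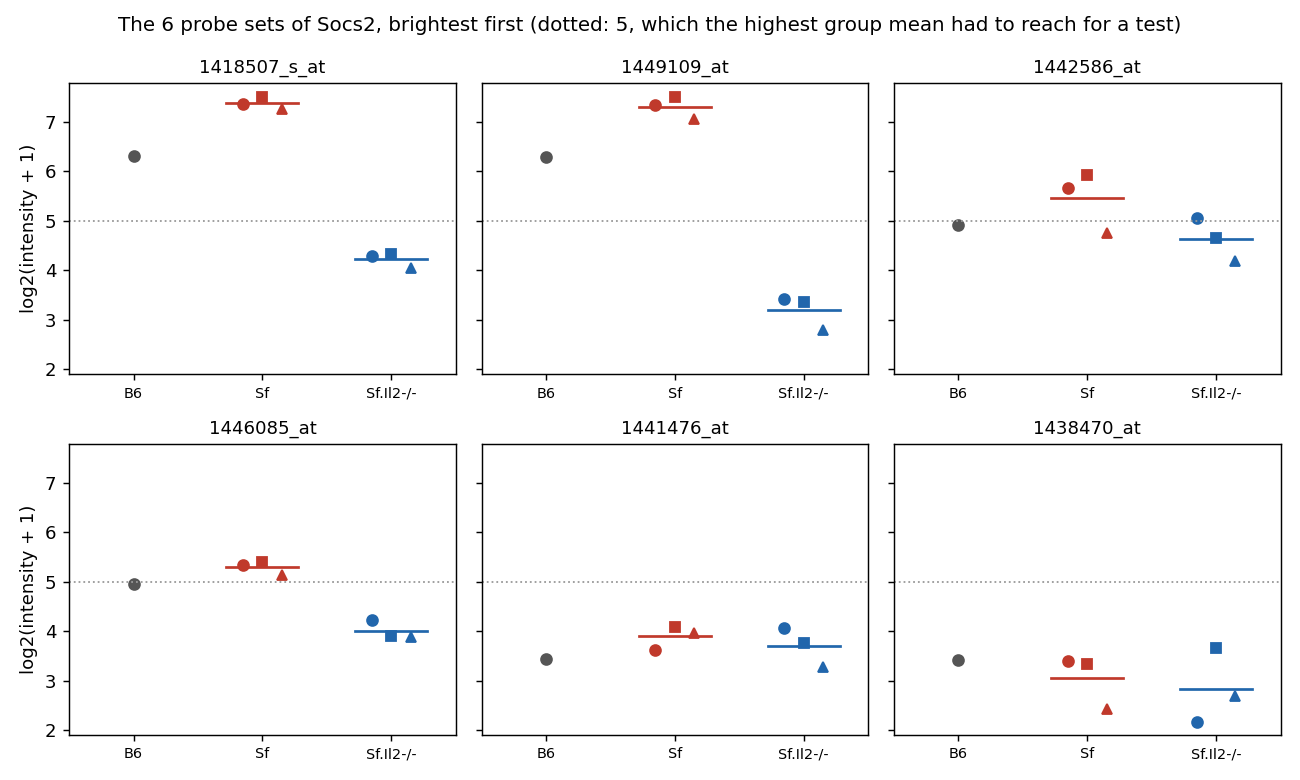
The 6 panels plot log2(intensity + 1) of each Socs2 probe set by group, points being arrays and lines the means of the groups of 3; the dotted line at 5 is the level that the highest group mean had to reach for a test. Only the first 2 probe sets separate the groups widely, and the last 2 stay under the dotted line in every array.

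Cish encodes CIS, which binds receptors that use STAT5 and is also known to restrain T cell receptor signalling. It read 9.11 in B6, 10.23, 10.25 and 10.37 in the Sf arrays, and 8.98, 8.06 and 8.33 in the Sf.Il2-/- arrays (1448724_at, its only probe set). The Sf arrays lay close together (SD 0.07), the Sf.Il2-/- arrays were all lower and varied more (SD 0.47), and the groups did not overlap. As intensity, Sf read 1199.8, 1219 and 1318, and Sf.Il2-/- read 505, 267 and 321. Cish fell by 1.82 ± 0.25 in Sf.Il2-/- (log2 with its SE; limma adjusted p = 0.0277), with differences of -1.72 within array set 1 and -2.03 within set 2. Its p ranked 12 among all genes tested. The size held under every setting tried, between -2.09 and -1.63, but the call did not. It was lost without Sf 1 (adjusted p = 0.0836), without Sf 2 (0.0637), without Sf.Il2-/- 2 (0.0611), without Sf.Il2-/- 3 (0.116), without both arrays that held neutrophil transcripts (0.0711) and with no filter on dim genes (0.0585).

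**Figure D3:**
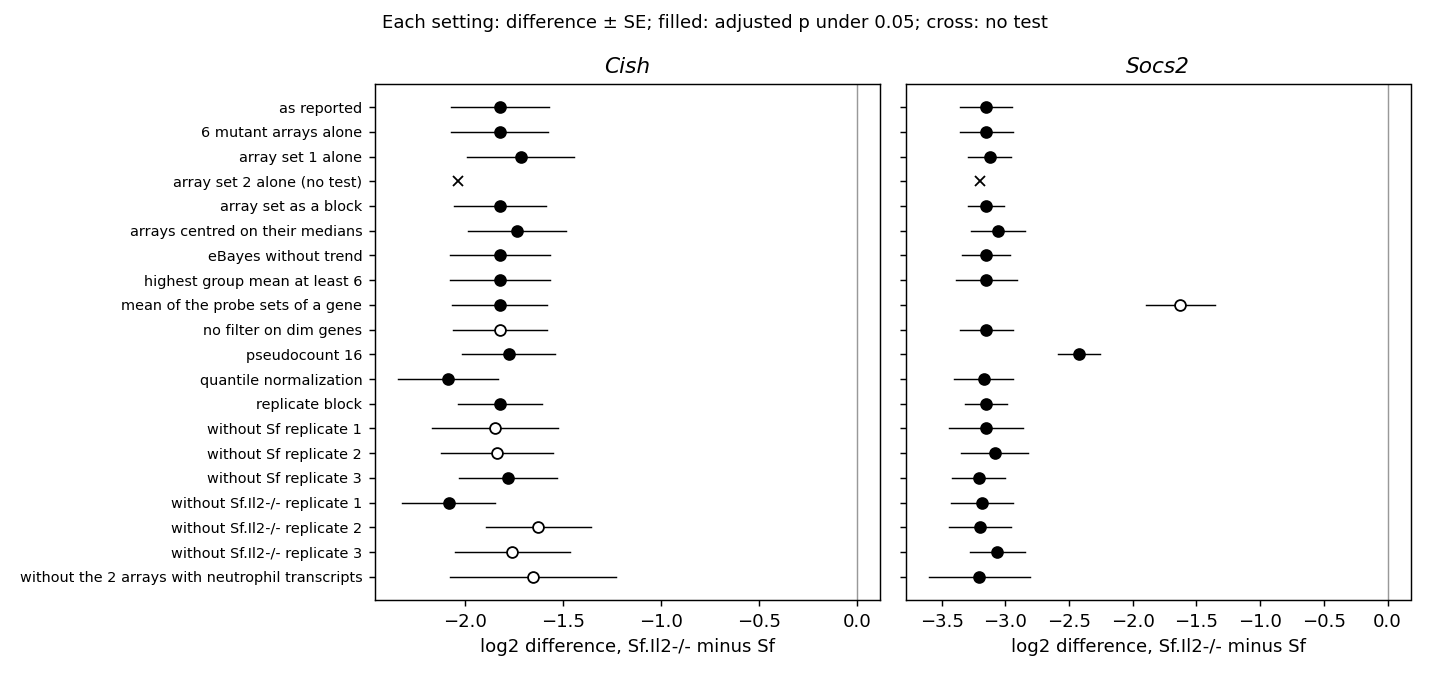
For each setting on the vertical axis, the point is the log2 difference of Cish (left) or Socs2 (right) between Sf.Il2-/- and Sf and the bar its SE; filled points have an adjusted p under 0.05, and crosses mark 1 array against 1 with no test. Cish stays between -2.09 and -1.63 with 6 open points, while Socs2 lies near -3.15 except for the larger pseudocount (-2.42) and the mean of its probe sets (-1.63).

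The members that did not pass varied more between arrays of a group than between the mutant groups. Socs1, an inhibitor that blocks JAK kinases directly, read 6.84 in B6, 7.40, 7.27 and 8.33 in the Sf arrays, and 7.31, 7.78 and 8.13 in the Sf.Il2-/- arrays. Sf 3 and Sf.Il2-/- 3 were the highest of their groups and the mutant groups overlapped almost fully. The difference was 0.08 ± 0.32 (95% interval -0.64 to 0.79, adjusted p = 0.977).

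Socs3, the other member that blocks JAK kinases directly, read 9.92 in B6, 10.07, 9.82 and 10.71 in the Sf arrays, and 9.84, 11.10 and 10.22 in the Sf.Il2-/- arrays. The highest arrays were Sf 3 and Sf.Il2-/- 2, and the latter is also the array with the most S100a8 RNA, whose part in this value was not tested. The difference of 0.19 ± 0.33 (95% interval -0.56 to 0.93, adjusted p = 0.956) became -0.24 without both arrays that held neutrophil transcripts. It was 0.53 within array set 1 and -0.50 within set 2, where 1 array stands against 1. Its 3 probe sets gave 0.19, 0.18 and 0.19, and 2 of them, the brighter ones, carry the suffix _x_at, which marks probes that may also match other sequences.

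Socs5, known for limiting interleukin-4 and epidermal growth factor receptor signals, read 7.0 in B6, 7.01, 6.65 and 7.35 in the Sf arrays, and 6.95, 7.53 and 7.38 in the Sf.Il2-/- arrays. Its difference was 0.29 ± 0.25 (95% interval -0.26 to 0.84, adjusted p = 0.876), and its second probe set gave 0.11. Socs6 and Socs7, which are known to act on receptor tyrosine kinase and insulin signalling, varied least. Socs6 read 7.05 in B6, 6.71, 6.74 and 7.03 in the Sf arrays, and 6.68, 6.45 and 7.0 in the Sf.Il2-/- arrays, a difference of -0.12 (95% interval -0.59 to 0.36, adjusted p = 0.956). Its other probe sets gave -0.07 and, in a set too dim to test, 0.49. Socs7 read 7.95 in B6, 7.75, 7.54 and 8.35 in the Sf arrays, and 7.79, 7.81 and 8.19 in the Sf.Il2-/- arrays, a difference of 0.05 (95% interval -0.52 to 0.62, adjusted p = 0.980). Its other 3 probe sets gave 0.0162, 0.025 and, in a set too dim to test, 0.13. The intervals of all 5 members leave room for differences of up to 0.93 in size, so they do not show equal levels. Sf 3 was the highest Sf array for all 5 of these members, by 0.31 (Socs6) to 0.99 (Socs1) over the mean of Sf 1 and Sf 2, and Sf.Il2-/- 3 was the highest of its group for 3 of the 5. For Socs2 both were the lowest of their groups. Both arrays also had the highest upper quartile of intensity in their groups. It was 144.6 in Sf 3 against 116.4 and 110.2, and 130.4 in Sf.Il2-/- 3 against 115.5 and 116.4. The share of all genes highest in these arrays was not counted, so the pattern is not shown to be particular to these members.

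Sf against B6 sets cells of mice with the Foxp3 mutation against 1 array of wild-type cells. What part of a difference comes from the mutation itself was not tested. None of the 7 members passed limma's test adjusted over all genes, while 2.47% of all genes did; 2 members, Cish and Socs2, had an unadjusted p under 0.05, as did 22.5% of all genes. Cish differed by 1.17 ± 0.35 (95% interval 0.39 to 1.96, adjusted p = 0.107) and Socs2 by 1.05 ± 0.29 (0.40 to 1.70, adjusted p = 0.0889), with all 3 Sf arrays above the B6 array in both. Across all genes tested, 19.6% had every Sf array above B6. The other probe sets of Socs2, brightest first, gave 1.01, 0.53, 0.35, 0.45 and -0.36. All but the first of these were dim, and the last 2 were too dim to test. The mean of all probe sets of Socs2 gave 0.50. With the replicate numbers as a block, which sets B6 beside Sf 1 and Sf.Il2-/- 1 by number alone, both passed, Cish at 1.41 (adjusted p = 0.0335) and Socs2 at 1.08 (adjusted p = 0.0315), but so did 16.4% of all genes. Both also passed without Sf 3 (adjusted p = 0.0340 and 0.0201), as did 30% of all genes. With the array set as a block, which sets B6 beside Sf 3 and Sf.Il2-/- 3, neither did (adjusted p = 0.118 and 0.0554). Cish passed after quantile normalization, at 1.74 (adjusted p = 0.0359), with 4.83% of all genes. Socs1 differed by 0.83 ± 0.45 (adjusted p = 0.296), with its 3 Sf arrays above B6. Socs6 differed by -0.22 ± 0.30 with its 3 Sf arrays below B6, as in 46.9% of all genes. With the array set as a block Socs1 was at 1.35 (adjusted p = 0.0306), with 5.28% of all genes called. Socs3, Socs5 and Socs7 differed by 0.28, 0.01 and -0.07, beside a median of -0.25 over all genes, which was 0.03 after quantile normalization. For Socs3 the other 2 probe sets gave -0.21 and 0.23. These differences rest on 1 B6 array, assumed to vary like the mutant arrays.

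Between Sf.Il2-/- and B6, Socs2 fell and the other 6 members did not pass, against 2.69% of all genes called and 1.2% called lower. Socs2 was lower by 4.28-fold, a difference of -2.10 ± 0.29 (n = 3 and 1; adjusted p = 0.00973). Its second probe set gave -3.10 (adjusted p = 0.00736), while the mean of its 6 probe sets gave -1.12 and did not pass (adjusted p = 0.182). Cish differed by -0.65 ± 0.35 (95% interval -1.44 to 0.14, adjusted p = 0.364), with its 3 arrays below B6, as in 44.5% of all genes. Socs1 differed by 0.90 ± 0.45, with its 3 arrays above B6, as in 24.7% of all genes, and by 1.43 with the array set as a block. By the brightest probe sets, the order of the levels was thus Sf, B6, Sf.Il2-/- for both Cish and Socs2. For Cish the steps on either side of B6 did not pass, and for Socs2 only the step from B6 down to Sf.Il2-/- did. Both comparisons with B6 share that array, so they are not independent.

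**Figure D4:**
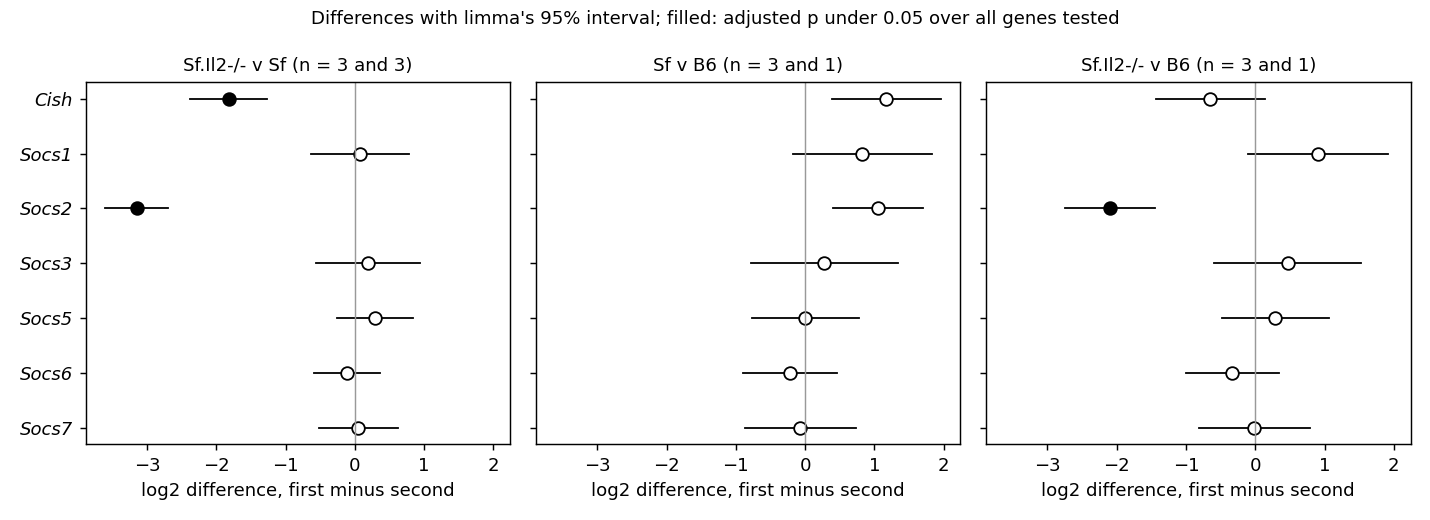
Points are log2 differences of the 7 members in the 3 comparisons, the first group minus the second, with limma's 95% interval as a bar; filled points have an adjusted p under 0.05 over all genes tested. Socs2 is filled in both comparisons that involve Sf.Il2-/-, Cish only in Sf.Il2-/- v Sf, and the bars of the comparisons with the single B6 array are wider.

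The genes most like Cish and Socs2 over the 7 arrays were found as those with the smallest root mean square distance between log2 values centred on each gene's own mean; only these members had group means spanning at least 1. For Cish they were Tube1 (distance 0.28), Myadm (0.31), Klrk1, an activating receptor of natural killer and T cells (0.32), Prxl2a (0.35) and Tafa3 (0.35), beside a root mean square deviation of 0.89 for Cish itself. Their differences between Sf.Il2-/- and Sf were -1.46, -1.53, -1.88, -1.89 and -1.63, in that order. For Socs2 they were Plac8 (0.52), Neb (0.62), Il2ra, which encodes the IL-2 receptor alpha chain (0.66), D630039A03Rik (0.68) and Itgae, an integrin chain (0.68), against 1.47 for Socs2 itself. Their differences were -3.05, -2.18, -4.07, -2.37 and -3.27. These genes were chosen for their likeness over the same arrays, which fixes the direction of the differences, so they are a description with no test. In the Sf.Il2-/- arrays Klrk1 (4.04, 4.3 and 4.0), Neb (3.51, 3.45 and 4.22) and Il2ra were near the floor, so the sizes of their differences are not exact. Distances grow with the size of the change, so those to Cish and to Socs2 are not comparable. The likeness is a description over 7 arrays that share their groups.

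**Figure D5:**
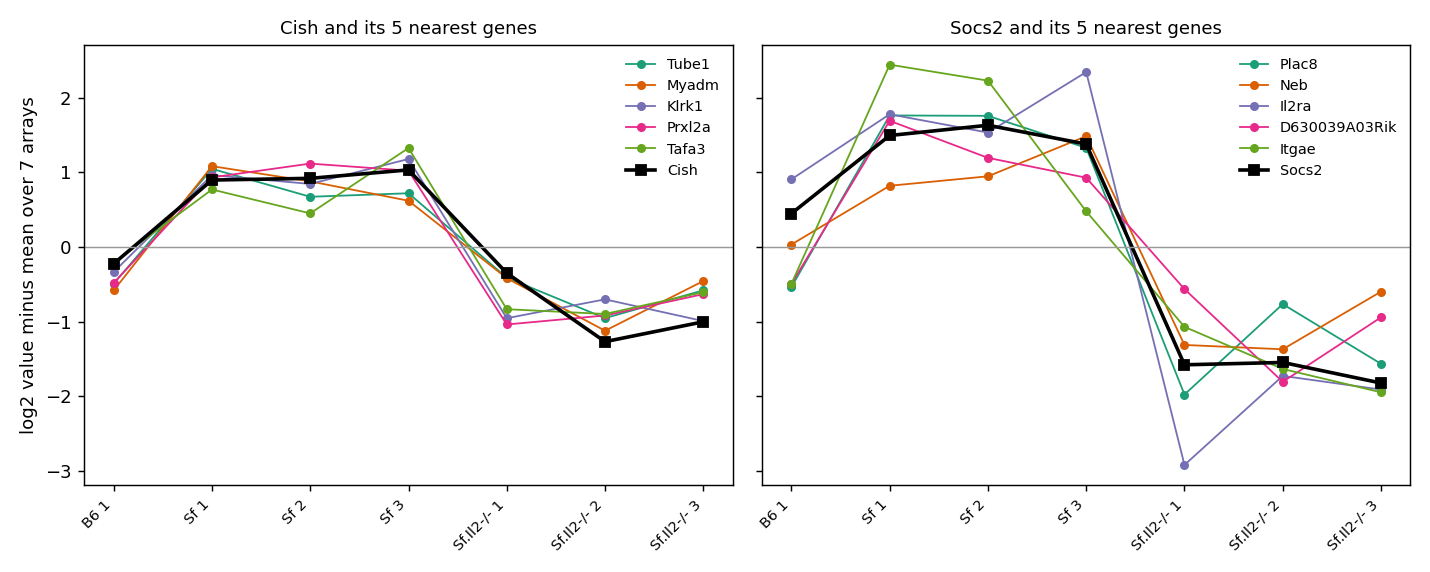
Lines join the log2 values of Cish (left) and Socs2 (right), in black, and of the 5 genes nearest to each, after subtraction of each gene's mean over the 7 arrays, in array order. All genes shown are high in the 3 Sf arrays and low in the 3 Sf.Il2-/- arrays, where Socs2, Il2ra, Neb and Klrk1 are near the floor of the arrays.

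Upstream of the SOCS genes, the receptors and signal carriers were followed by lists. For reading their counts, 7.92%, 22.5% and 18.6% of all genes had an unadjusted p under 0.05 in Sf.Il2-/- v Sf, Sf v B6 and Sf.Il2-/- v B6, 1.31% rose and 1.16% fell in Sf v B6, and 1.49% rose in Sf.Il2-/- v B6. Of 17 tested cytokine receptor chains, Il2ra fell by 4.07 ± 0.34 in Sf.Il2-/- v Sf (adjusted p = 0.00132), to 3.10, 4.29 and 4.11, near the floor, so the size is not exact; 0 rose and 16 did neither, with a median of 0.15 beside 0.08 for all genes. Il2rb, the chain that carries the IL-2 signal, read 9.30, 9.14 and 10.43 in the Sf arrays and 9.39, 9.78 and 10.20 in the Sf.Il2-/- arrays. Of 10 tested JAK kinases and STATs none passed (1 at an unadjusted p under 0.05), and the median was 0.27. Stat5a and Stat5b, the factors closest to Cish and Socs2, differed by 0.08 and 0.20 (adjusted p = 0.968 and 0.934). In Sf v B6, Il6ra and Il6st, the chains of the interleukin-6 receptor, fell (differences of -2.70 and -1.92), Il12rb1 rose by 1.86, and among the kinases Jak1 fell by 1.27, with list medians of -0.59 and -0.67 beside -0.25 for all genes. In Sf.Il2-/- v B6, Il2ra and Il6ra fell (differences of -3.09 and -2.61), and no kinase or STAT passed (2 at an unadjusted p under 0.05).

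Of 11 tested genes of cytokines that act through JAKs and STATs, 4 rose in Sf v B6, namely Il13 (5.0, from 1.94 in B6, near the floor, so not exact), Il10 (3.77), Il21 (2.62) and Lif (2.10). That count was 1 to 7 under the alternatives. Il4, Il5, Il10, Il13, Lif and Csf2 were under 5 in B6 and bright enough for a test only through a mutant group. This pushes the counts of both comparisons with B6 toward a rise. In Sf.Il2-/- v B6, Il21 rose by 3.11 and Il10 by 2.89. Between the mutant groups none of the 11 passed, with 8 at an unadjusted p under 0.05 and a median of -0.88. Those 8 go in both directions, as Il2 (1.76) and Il21 (0.49) were higher in Sf.Il2-/-. By value, 3 of the 11 were higher. Il5, Il13 and Csf2 were bright enough for a test only through Sf, which pushes the count and the median toward a fall. Il13, made by type 2 helper T cells, read 7.37, 5.42 and 8.02 in the Sf arrays and 2.55, 1.65 and 3.97 in the Sf.Il2-/- arrays (adjusted p = 0.0648). Of 20 other IL-2 and STAT5 induced genes, Il2ra and Foxp3 (-1.79) fell in Sf.Il2-/- v Sf, 0 rose and 18 did neither, with a median of -0.21. At an unadjusted p under 0.05 were 7 of the 20, and 8 were higher by value in Sf.Il2-/-. Among those that did not pass, Nfil3 differed by -1.78, Cdkn1a by -1.07 and Prf1 by 1.42 (limma adjusted p = 0.26, 0.122 and 0.235). Pim1, a kinase gene induced by STAT5, differed by -0.47 (adjusted p = 0.569) and Bcl2, a survival gene, by -0.39 (adjusted p = 0.761). In Sf v B6, Gzmb, Nfil3 and Cdkn1a rose by 3.07, 3.00 and 2.06. Nfil3 read 4.72 in B6, so it too was tested only through the mutant groups. In Sf.Il2-/- v B6, Gzmb and Tnfrsf4 rose by 3.68 and 1.69, and Il2ra, Foxp3 and Ccnd2 fell, with differences of -3.09, -2.96 and -1.63.

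Other brakes on this pathway were followed too. Of 14 other inhibitors, among them Socs4, which is not one of the 7 members, the phosphatase genes Ptpn2 and Ptpn6, and the Pias genes, none passed in Sf.Il2-/- v Sf (2 at an unadjusted p under 0.05), with a median of 0.18. Socs4 read 9.21 in B6, 8.39, 7.81 and 8.86 in the Sf arrays, and 8.51, 8.62 and 8.47 in the Sf.Il2-/- arrays. In Sf v B6 Usp18, which restrains the interferon receptor, fell by 2.00, and in Sf.Il2-/- v B6 none of the 14 passed (3 at an unadjusted p under 0.05).

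Because the arrays hold bulk RNA, fewer cells of a kind and less RNA per cell cannot be told apart in these values. Of 11 marker lists of cell types, the summed intensities of the mutant groups overlapped in 9 and did not in CD4 T cells, given above, and natural killer cells. For the latter, 3 of 4 markers were on the array, with sums of 206 in B6, 273 to 433 in Sf and 544 to 1042 in Sf.Il2-/-. The sums follow Eomes, which some T cells express too (7.29 to 8.46 in Sf and 8.82 to 9.90 in Sf.Il2-/-), while Ncr1, a defining marker, was at most 3.12 in every array. The part of these differences in the Cish and Socs2 values was not tested. Foxp3, which marks regulatory T cells, read 7.25 in B6, 6.04, 5.87 and 6.32 in the Sf arrays, and 4.41, 4.20 and 4.24 in the Sf.Il2-/- arrays.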

How the data were processed

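RNA of 7 samples of sorted CD4+ T cells was measured on Affymetrix arrays. The authors deposited 1 linear intensity per probe set and array, and per the submitters' processing notes the tools were GCRMA and GCOS, whose versions, order and parameters are not given in the sources used here. No further normalization was applied. Gene names came from the platform annotation (34945 probe sets with 1 gene, 932 with several, 9160 with none; 34741 brought to current symbols by Entrez number), and genome positions of promoters from RefSeq, GRCm38.p6.

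Intensities were taken as log2(intensity + 1). A gene's brightest probe set was kept, and 11460 of 18193 genes with a highest group mean of at least 5 were tested. The test was that of limma 3.58.1 under R 4.3.3 (1 fit of 3 group means, eBayes with an intensity trend, 4 residual degrees of freedom, Benjamini-Hochberg at 0.05, two-sided). The B6 group is 1 array. The script was tested on simulated data. Figures used matplotlib 3.10.9.

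The members and lists were chosen with earlier results of these data known. Named genes are the members, Il2, Foxp3 and Il2ra, up to 4 called genes per list and comparison, and the 5 nearest genes of members whose group means span at least 1. Socs4, Il2rb, Stat5a, Stat5b, Pim1, Bcl2, Ccnd2, Ptpn2, Ptpn6, S100a8, Eomes, Ncr1, Il5, Csf2 and Prf1 were added after their values were seen. List members not on the array or too dim were not analysed here, and 1 list is not reported here.

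Same-numbered Sf and Sf.Il2-/- arrays deviated together from their group means (correlations 0.301, 0.211 and 0.505), so the replicate numbers of the titles were fitted as a block as an alternative. Pairing by number was not distinct: Sf 2 correlated with Sf.Il2-/- 1 at 0.333, above its own number, and Sf 1 with Sf.Il2-/- 2 at 0.111. The check does not reach B6, which shares only a number. No pair of arrays shared more than 0.535% identical values. Other alternatives were the filter, normalization, pseudocount, trend, probe set rule, leaving out each mutant array, array sets, and leaving out both arrays with the most S100a8.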

Additional observations from a re-analysis of the deposited data

How the results depend on the processing

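The count of members changed in Sf.Il2-/- v Sf, 2 as reported, was 1 when probe sets were averaged per gene (Cish), 1 with no filter and 1 without both arrays with neutrophil transcripts (Socs2 each), and 1 to 2 when single arrays were left out. In Sf v B6 the count of 0 became 1 with the array set as a block (Socs1), 1 after quantile normalization (Cish) and 2 with the replicate block (Cish and Socs2), with 0 to 2 when single arrays were left out. In Sf.Il2-/- v B6 the count of 1 became 2 with the array set as a block and 0 with the mean of probe sets, and stayed 1 without any single mutant array. The replicate block changed no other member's call. Over all genes, the 32 calls of Sf.Il2-/- v Sf became 588 in array set 1 alone, 74 with the array set as a block and 11 with no filter. They became 60 with the replicate block, fitted here on the 6 mutant arrays alone, which gave 34 without the block. When single arrays were left out they became 8 to 872, the highest without Sf 3 and the lowest without Sf.Il2-/- 3. The 283 of Sf v B6 (133 lower) became 605 with the array set as a block, 188 with the mean of probe sets, 161 with no filter, 555 after quantile normalization (163 lower) and 1880 with the replicate block, and 116 (without Sf 1) to 3523 (without Sf 3). The 308 of Sf.Il2-/- v B6 (137 lower) became 721, 138 and 723 (239 lower) with the array set as a block, no filter and quantile normalization, 1212 with the replicate block, and 129 (without Sf.Il2-/- 1) to 1541 (without Sf 3).

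Cish and Socs2 kept their direction in all 3 comparisons under every setting. Members that did not pass changed sign as follows. In Sf.Il2-/- v Sf these were Socs1 (-0.079 without the neutrophil arrays; -0.20 in array set 2; -0.12 to 0.41 without single arrays), Socs3 (-0.17 after quantile normalization, -0.24 without the neutrophil arrays, -0.50 in array set 2; -0.17 to 0.46), Socs6 (0.10 with the mean of probe sets; -0.26 to 0.014) and Socs7 (-0.15 in array set 2; -0.12 to 0.28). In Sf v B6 they were Socs3 (-0.0591 with the replicate block), Socs5 (-0.064 with arrays centred on their medians, -0.16 with the replicate block; -0.17 to 0.18), Socs6 (0.0291 with the array set as a block) and Socs7 (0.30 with the array set as a block, 0.23 after quantile normalization, 0.40 in array set 2; -0.30 to 0.10). In Sf.Il2-/- v B6 it was Socs7 (0.35 with the array set as a block, 0.0031 with arrays centred, 0.03 with the mean of probe sets, 0.24 after quantile normalization, 0.0432 without the neutrophil arrays, 0.25 in array set 2; -0.15 to 0.0563). Of the listed genes, Jak1, Nfil3 and Asb2 passed in 8 of 16 other settings, Il6st in 7, Il12rb1 and Usp18 in 9, Il13, Lif and Ccnd2 in 10, and Tnfrsf4 in 11, with no change of direction. The counts called per list moved too: in Sf.Il2-/- v Sf to 0 to 5 for the cytokine genes and 1 to 7 for the IL-2 and STAT5 induced genes, and in Sf v B6 to 1 to 6 for the receptor chains, 0 to 5 for the JAK kinases and STATs, 0 to 7 for the other inhibitors and 2 to 8 for the IL-2 and STAT5 induced genes. The cause of these changes was not tested. Dim signal limits the size of the Socs2 fall, and 1 B6 array limits both comparisons with B6.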

Other observations

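SOCS proteins work through a ubiquitin ligase that their SOCS box recruits, built on elongins B and C, a cullin and a RING protein. None of 9 tested genes of this machinery (Elob, Eloc, Cul2, Cul5, Rnf7, Rbx1, Nedd8, Ube2f and Arih2) passed limma's test in any of the 3 comparisons, with 3, 0 and 1 at an unadjusted p under 0.05 in Sf.Il2-/- v Sf, Sf v B6 and Sf.Il2-/- v B6. Cul5, the cullin that SOCS proteins use, read 7.11 in B6, 6.65, 6.58 and 6.91 in the Sf arrays, and 6.70, 6.57 and 6.78 in the Sf.Il2-/- arrays, so the mutant groups overlapped.

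Of 13 tested genes of other SOCS box proteins, none passed in Sf.Il2-/- v Sf (0 at an unadjusted p under 0.05) or in Sf v B6 (2 at an unadjusted p under 0.05). Asb2, a SOCS box protein with ankyrin repeats, rose in Sf.Il2-/- v B6 by 2.41 ± 0.53 (log2, SE, n = 3 and 1; adjusted p = 0.0479) and passed in 8 of 16 other settings. It read 5.44 in B6, 7.21, 6.76 and 8.35 in the Sf arrays, and 7.47, 8.10 and 7.99 in the Sf.Il2-/- arrays, so every mutant array was above the B6 array and the mutant groups overlapped.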
